A study of Mus musculus with 4 samples.

Results

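The 43 genes described here encode proteins that carry a cell through mitosis and cytokinesis: regulators of entry into mitosis, mitotic kinases and checkpoint proteins, the chromosomal passenger complex, the kinetochore, anaphase and mitotic exit, chromosome structure, spindle assembly and cytokinesis. They were chosen by name for these functions, with earlier results of these data known but no threshold on the measured values, and all 43 were found among the 41214 gene identifiers counted in every library. All 43 also passed the filter on low counts that left 15063 genes to be tested, with between 261 and 114978 counts per gene and library.

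The 4 libraries came from C57Bl/6 mice at 8 weeks of age, from bone marrow cells of tibiae, femora and humeri gated as Lin- cKit+ CD41+ CD61+ megakaryocytes. They formed 4 groups of 1 library each: Gfi1b wild-type with PF4-Cre, Gfi1b knockout with PF4-Cre, Gfi1b wild-type with ROSA-Cre, and Gfi1b knockout with ROSA-Cre. Gfi1b encodes a zinc finger transcriptional repressor of the erythroid and megakaryocytic lineages. The Pf4 promoter drives Cre mainly in megakaryocytes, whereas of the ROSA-Cre line and of any treatment that activates it the labels say nothing more. The labels mark all 4 groups, controls included, with a Cre, and they do not say whether a library holds 1 mouse or a pool. Library totals were 61652843 and 59595680 gene counts for PF4-Cre wild-type and knockout, and 24869421 and 21835165 for ROSA-Cre.

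Under PF4-Cre, Gfi1b itself was counted 10137 times in wild-type and 84744 times in the labelled knockout, and under ROSA-Cre 5864 and 55122 times. It thus stood 8.26-fold and 10.3-fold higher in the libraries labelled knockout (log2 fold change 3.21 ± 0.17 SE, edgeR adjusted p = 0.000142), which goes against the label at the level of the whole gene count. Counts per exon were not analysed here, so every direction below is that of the libraries labelled knockout. All 15 megakaryocyte markers examined were detected in each library, summing to 7319, 8165, 10195 and 7108 CPM (counts scaled to a common library size), in the order PF4-Cre wild-type and labelled knockout, then ROSA-Cre wild-type and labelled knockout. The same order is used for every set of 4 values. Among the 15 markers are Itga2b and Itgb3, which encode the sort markers CD41 and CD61. All 11 neutrophil and all 12 erythroid genes examined were detected in each library as well.

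In a dividing cell, cyclin B with Cdk1 starts mitosis, Plk1 and the Aurora kinases build the spindle, the checkpoint holds anaphase until each kinetochore is attached, and the anaphase promoting complex then triggers chromosome separation. Cytokinesis follows when centralspindlin recruits the exchange factor Ect2, which activates RhoA and so the actomyosin ring between the daughter cells. Megakaryocytes are known for endomitosis: they enter mitosis repeatedly but fail in late cytokinesis, and become polyploid. Low levels of Ect2 and of a second RhoA exchange factor, Arhgef2 (GEF-H1), are known from work on this process.

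Promoters of genes of this kind often hold a cell cycle homology region (TTTGAA or TTTAAA) and CCAAT boxes, through which the DREAM and MMB complexes and NF-Y act. RefSeq windows of 250 bases before to 50 after the start (build GRCm38.p6) were matched for 35 of the 43 members, and 5 are printed to show that the letters are shared by members that moved in opposite directions. Ect2 is the member that rose, Racgap1 its partner in cytokinesis, and Ube2c, Cdk1 and Aurka are members that fell. Ect2 has a second window for another start, not shown. Capitals mark each match on either strand to these letters, to the E2F letters TTCCCGC or TTGGCGC, and to the GFI1 family core AATCNNNGC, and matches can overlap.
Ect2 (chr3:27153829-27154128, minus strand): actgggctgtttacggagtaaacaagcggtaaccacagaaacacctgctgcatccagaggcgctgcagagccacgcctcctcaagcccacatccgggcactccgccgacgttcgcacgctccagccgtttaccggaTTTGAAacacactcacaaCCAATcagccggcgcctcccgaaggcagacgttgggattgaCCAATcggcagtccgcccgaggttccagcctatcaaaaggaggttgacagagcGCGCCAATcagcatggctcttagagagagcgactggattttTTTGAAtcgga
Racgap1 (chr15:99651607-99651906, minus strand): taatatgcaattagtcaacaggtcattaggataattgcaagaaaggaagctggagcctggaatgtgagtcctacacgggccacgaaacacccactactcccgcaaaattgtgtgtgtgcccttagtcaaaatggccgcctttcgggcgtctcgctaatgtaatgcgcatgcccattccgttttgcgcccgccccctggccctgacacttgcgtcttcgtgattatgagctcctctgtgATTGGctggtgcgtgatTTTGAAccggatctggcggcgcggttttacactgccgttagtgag
Ube2c (chr2:164769679-164769978, plus strand): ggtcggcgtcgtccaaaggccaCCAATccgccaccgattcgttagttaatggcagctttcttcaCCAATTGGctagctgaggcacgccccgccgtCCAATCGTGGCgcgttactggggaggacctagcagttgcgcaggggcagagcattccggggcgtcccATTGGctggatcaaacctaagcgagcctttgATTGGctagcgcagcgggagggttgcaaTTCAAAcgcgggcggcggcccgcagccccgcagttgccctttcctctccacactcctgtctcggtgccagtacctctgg
Cdk1 (chr10:69352863-69353162, minus strand): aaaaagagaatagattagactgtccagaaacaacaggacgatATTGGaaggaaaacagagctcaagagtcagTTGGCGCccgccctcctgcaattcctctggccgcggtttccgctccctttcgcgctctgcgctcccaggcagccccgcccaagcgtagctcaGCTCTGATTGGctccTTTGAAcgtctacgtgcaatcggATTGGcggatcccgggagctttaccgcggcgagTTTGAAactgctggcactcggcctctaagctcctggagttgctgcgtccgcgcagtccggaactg
Aurka (chr2:172370521-172370820, minus strand): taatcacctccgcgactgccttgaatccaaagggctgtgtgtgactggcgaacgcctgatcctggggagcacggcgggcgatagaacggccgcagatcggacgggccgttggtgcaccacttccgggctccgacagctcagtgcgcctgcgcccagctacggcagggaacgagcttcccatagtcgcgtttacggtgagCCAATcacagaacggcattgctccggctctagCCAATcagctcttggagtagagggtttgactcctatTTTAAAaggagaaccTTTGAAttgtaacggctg

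The Ect2 window held TTTGAA at -114 and 40 from the start and 3 CCAAT boxes, the last of which overlaps TTGGCGC read on the other strand. The Racgap1 window held 1 TTTGAA and 1 CCAAT. Across the 35 members with a window, 25 (71.4%) held TTTGAA, against 18.1% of 27025 promoter windows of this length, 1 for each gene symbol. These 27025 are called all windows below. CCAAT was found in 28 members (80%) against 37.9% of all windows, and 18 members (51.4%) held it at least 2 times, against 12.2%. TTTAAA was in 8 members (22.9%) against 13.2%, TTGGCGC in 6 (17.1%) against 2.54%, TTCCCGC in 1 (2.86%) against 4.66%, and AATCNNNGC in 10 (28.6%) against 10.4%. TTTGAA was present in 13 of the 19 windows of members that fell, and in 11 of the 15 of members without a call. The match to the GFI1 family core overlapped CCAAT boxes in Bub1, Cdk1, Mki67, Ncapd2, Spc25, Ttk and Ube2c. It lay clear of them in Cdc20, Ckap2 and Plk1. Such overlap was not counted over all windows, so the share holding this core cannot be read apart from the share holding CCAAT. All matches to these motifs describe letters and are not binding data.

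The genotype comparison asks how these genes differ between the libraries labelled knockout and wild-type, over both Cre models. Most members were lower in the libraries labelled knockout: 25 of 43 fell, 1 rose and 17 passed no test (edgeR's quasi-likelihood F-test, with a term for the Cre model, at an adjusted p under 0.05 over all genes). The background was 9.59% of all 15063 genes called lower and 12.6% called higher. Summed over all members, the level was 10152, 7562, 7946 and 5832 CPM, that is 0.984%, 0.768%, 0.786% and 0.598% of gene counts, so it was lower in the labelled knockout of each model. The members' median log2 fold change was -0.45, with 41 of 43 negative, against -0.02 over all genes tested. In RNA from bulk cells, fewer cycling cells and less of each RNA per cell cannot be told apart.

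With 1 library in each group, the spread behind each p-value is the disagreement of the models on the genotype effect, on 1 residual degree of freedom moderated over genes, and the labels do not say which libraries are separate animals. Leaving out any 1 of the 4 libraries, and with it the Cre model term, left 1 library in a genotype group. The members' median log2 fold change then ran from -0.66 to -0.31. Their calls as lower were lost in these fits, as were most such calls over all genes. On all 4 libraries the DESeq2 Wald test called 24 members and 8.91% of all genes lower.

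**Figure D1:**
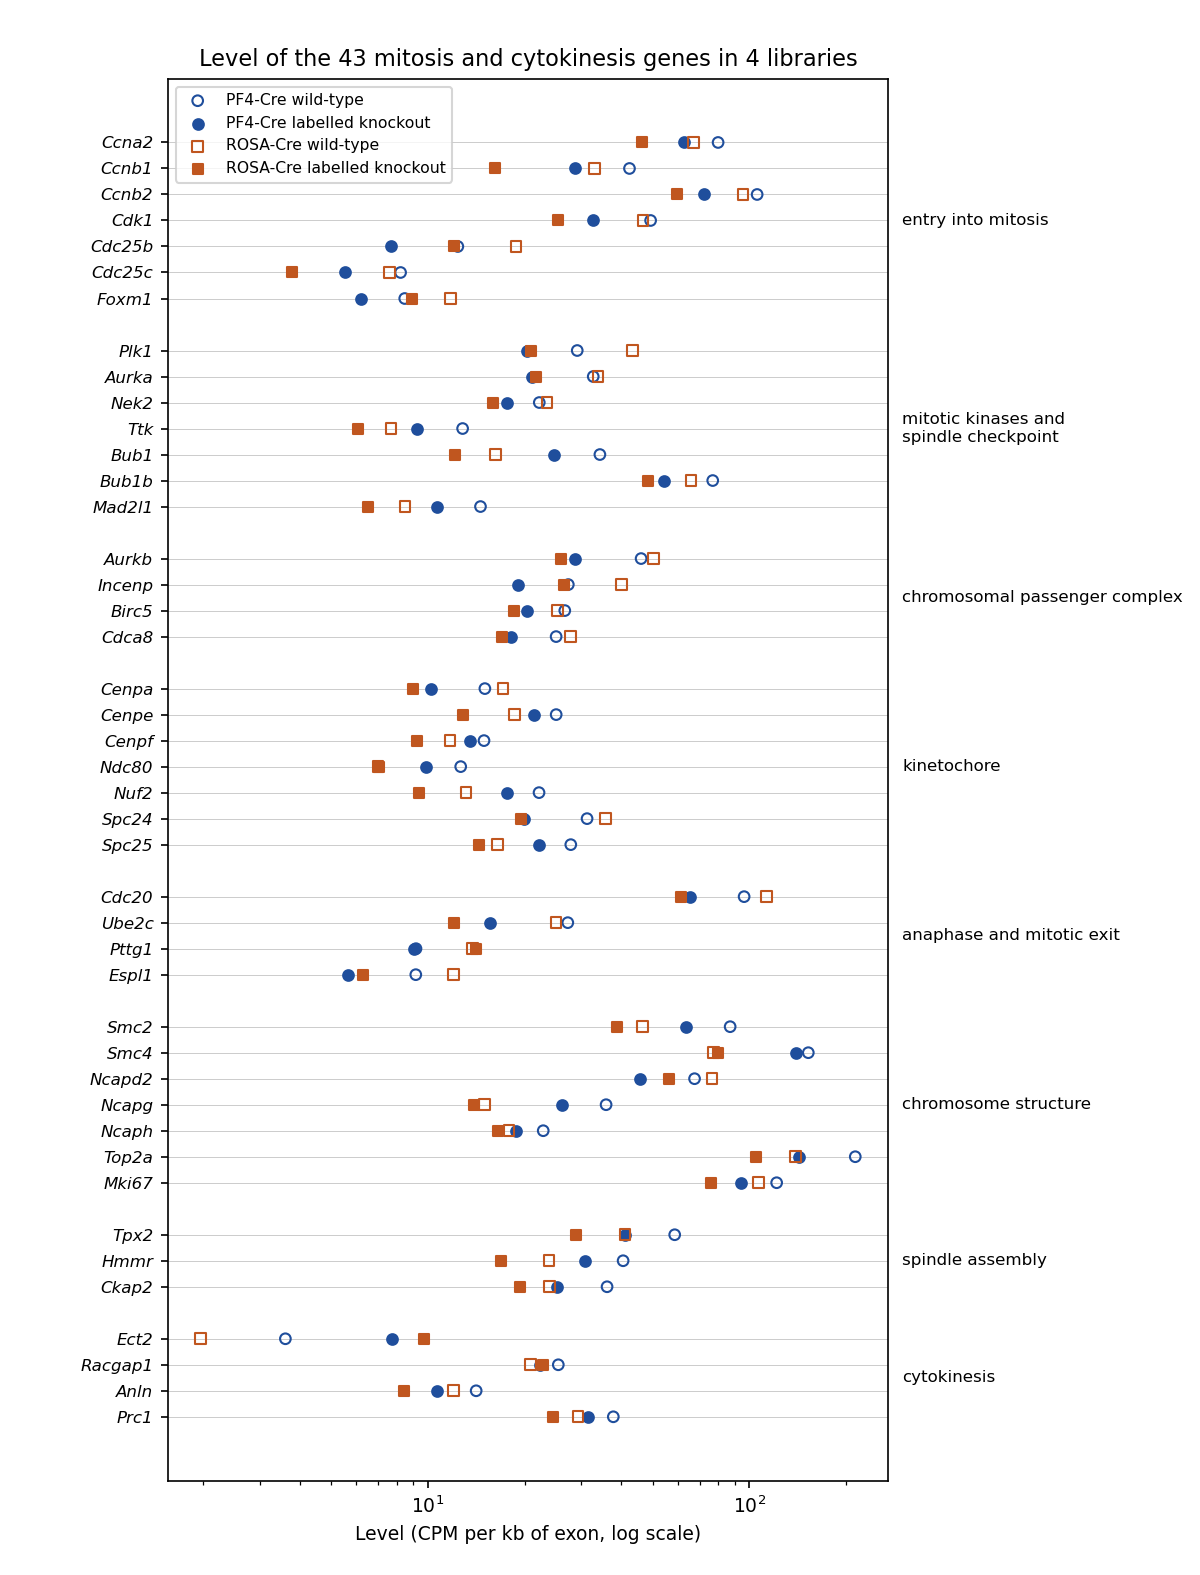
Level of each member in the 4 libraries, as CPM per kb of exon on a log scale, by role; open symbols are wild-type, filled symbols labelled knockout, circles PF4-Cre and squares ROSA-Cre. Top2a and Smc4 stand at the high end, and Ect2 is the one gene whose filled symbols both lie well to the right of its open ones.

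Of the regulators of entry into mitosis, 6 of 7 fell and the median log2 fold change was -0.67. Cdk1, the kinase that drives entry, measured 243 and 162 CPM under PF4-Cre and 231 and 125 CPM under ROSA-Cre. That is 0.664 times the wild-type level (95% counting interval 0.647 to 0.681) and 0.542 times (0.518 to 0.568), with a log2 fold change of -0.74 ± 0.13 SE (edgeR adjusted p = 0.0101). Both labelled knockout values lay below both wild-type values. Its partner cyclin B1 (Ccnb1) stood at 179, 121, 139 and 68.2 CPM, a log2 fold change of -0.79 ± 0.15 (edgeR adjusted p = 0.0118). The second B cyclin, Ccnb2, fell by 0.61, and Cdc25c, a phosphatase that activates Cdk1, by 0.78. Ccna2 (cyclin A2), which acts in S phase and early mitosis, fell by 0.44. Its exons overlap those of Exosc9 on the other strand, and whether the counting used strand is not given in the sources used here. Foxm1, a transcription factor for this programme, had a log2 fold change of -0.43 that missed the threshold (edgeR adjusted p = 0.0577).

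Cdc25b, another activating phosphatase, measured 46.2, 28.6, 70.1 and 45.0 CPM. Its ratios of 0.619 and 0.641 were alike in the models (log2 fold change -0.67, edgeR adjusted p = 0.0163), but the labelled knockout under ROSA-Cre stood at about the level of the PF4-Cre wild-type. It overlaps Spef1 on the other strand.

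Among mitotic kinases and checkpoint proteins, 6 of 7 fell, with a median log2 fold change of -0.45. Plk1, which acts in spindle building, mitotic exit and cytokinesis, measured 64.1, 44.8, 95.4 and 46.2 CPM. Its ratio to wild-type was 0.698 (0.664 to 0.733) under PF4-Cre and 0.484 (0.449 to 0.521) under ROSA-Cre, and the log2 fold change was -0.78 ± 0.16 (edgeR adjusted p = 0.0175). The wild-type level was higher under ROSA-Cre and the labelled knockout levels nearly met. Aurora A (Aurka), the centrosomal kinase, measured 82.8, 53.2, 85.6 and 55.0 CPM, with almost the same ratio in each model (0.643 and 0.642; log2 fold change -0.64 ± 0.12, edgeR adjusted p = 0.0144). The centrosomal kinase Nek2 and the checkpoint genes Bub1, Bub1b and Mad2l1 fell by 0.45, 0.45, 0.48 and 0.42. Ttk, the kinase at the head of the checkpoint, passed no test (log2 fold change -0.41, edgeR adjusted p = 0.077).

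All 4 genes of the chromosomal passenger complex fell, with a median of -0.57. This complex corrects faulty kinetochore attachments and later moves to the midzone for cytokinesis. Its kinase Aurora B (Aurkb) measured 136, 84.9, 148 and 76.3 CPM, ratios of 0.625 (0.604 to 0.648) and 0.514 (0.485 to 0.545), with a log2 fold change of -0.82 ± 0.13 (edgeR adjusted p = 0.00712). Its scaffold Incenp measured 118, 82.3, 174 and 115 CPM (log2 fold change -0.56 ± 0.12, edgeR adjusted p = 0.0184). The wild-type and labelled knockout values did not overlap for either gene, although for Incenp the ROSA-Cre labelled knockout stood just under the PF4-Cre wild-type. The other subunits, Birc5 (survivin) and Cdca8 (borealin), fell by 0.42 and 0.58. The exons of Cdca8 overlap 9930104L06Rik on the other strand.

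At the kinetochore, 2 of 7 members fell and the median was -0.38. Spc24, a subunit of the Ndc80 complex that binds microtubules, measured 80.5, 51.1, 91.9 and 50.2 CPM (log2 fold change -0.76 ± 0.13, edgeR adjusted p = 0.00951). The centromeric histone H3 variant Cenpa measured 88.2, 60.2, 100.4 and 52.7 CPM (log2 fold change -0.74 ± 0.14, edgeR adjusted p = 0.0138). In both genes each labelled knockout value lay below each wild-type value. The other subunits of the Ndc80 complex did not pass: Nuf2 had a log2 fold change of -0.41 (edgeR adjusted p = 0.0517) and Spc25 of -0.26 (edgeR adjusted p = 0.191). Ndc80 itself measured 82.2 and 64.3 CPM under PF4-Cre and 45.5 and 45.8 CPM under ROSA-Cre, so its counting interval excluded 1 in the first model (0.749 to 0.815) and held 1 in the second (0.924 to 1.1). Cenpe, a kinesin of the kinetochore, and Cenpf had log2 fold changes of -0.38 and -0.24, neither past the threshold.

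The role with the most negative median, -0.77, was anaphase and mitotic exit, where 3 of 4 members fell. Ube2c, the ubiquitin-conjugating enzyme of the anaphase promoting complex, measured 70.9, 40.6, 65.1 and 31.4 CPM. Its ratios were 0.572 (0.544 to 0.602) and 0.482 (0.441 to 0.527), and its log2 fold change of -0.92 ± 0.14 was the lowest of the 43 (edgeR adjusted p = 0.00629). Separase (Espl1), which cuts cohesin at anaphase, measured 80.3, 49.4, 105 and 55.1 CPM (log2 fold change -0.82 ± 0.13, edgeR adjusted p = 0.00746). Cdc20, the activator of the anaphase promoting complex, fell by 0.72. It overlaps Elovl1 on the other strand, which fell as well. Securin (Pttg1), the inhibitor of separase, passed no test: it measured 18.4, 18.2, 27.6 and 28.4 CPM (log2 fold change 0.01 ± 0.17, edgeR adjusted p = 0.972). The spread of its ratios allows no direction, with counting intervals of 0.908 to 1.08 and 0.921 to 1.15.

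Among the genes of chromosome structure, 1 of 7 fell and the median was -0.36. The member with the highest level per length was in this role: Top2a, the topoisomerase that untangles sister chromatids, reached 213, 143, 139 and 105 CPM per kb of exon. In CPM, Top2a measured 1924, 1287, 1256 and 946, with ratios of 0.669 (0.663 to 0.675) and 0.753 (0.74 to 0.767). Its log2 fold change of -0.49 ± 0.16 missed the threshold (edgeR adjusted p = 0.065). Top2a did pass with a robust prior (edgeR adjusted p = 0.0374) and with GC and length correction (edgeR adjusted p = 0.0183). It also passed by the DESeq2 Wald test (adjusted p = 0.00674), and in no other setting. The condensin subunit Ncapd2 was the member that fell, at 423, 287, 480 and 352 CPM (log2 fold change -0.50 ± 0.12, edgeR adjusted p = 0.0295). It shares its strand and some exon sequence with the small RNA gene Scarna10.

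None of the other condensin subunits passed the test. Smc4 measured 795 and 725 CPM under PF4-Cre and 403 and 416 CPM under ROSA-Cre (log2 fold change -0.04 ± 0.13, edgeR adjusted p = 0.842). It hosts Mir15b and Mir16-2. Its partner Smc2 had a log2 fold change of -0.36 (edgeR adjusted p = 0.081), and the subunits Ncaph and Ncapg had -0.20 and -0.28, neither past the threshold. With GC and length correction, and in that setting alone, Ncapg passed (-0.62, edgeR adjusted p = 0.00767). Mki67, which coats mitotic chromosomes, had -0.43 (edgeR adjusted p = 0.0785).

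Of the spindle assembly genes 2 of 3 fell. Tpx2, the activator of Aurora A on the spindle, measured 274, 191, 192 and 135 CPM (log2 fold change -0.51 ± 0.12, edgeR adjusted p = 0.0232). Hmmr, a spindle protein, measured 220.0, 167, 129 and 91.7 CPM (log2 fold change -0.45 ± 0.12, edgeR adjusted p = 0.036). The PF4-Cre labelled knockout was level with the ROSA-Cre wild-type for Tpx2 and above it for Hmmr, so that for Hmmr the groups overlapped across the models but not within them. Ckap2, which stabilises microtubules, had -0.41 (edgeR adjusted p = 0.0568).

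**Figure D2:**
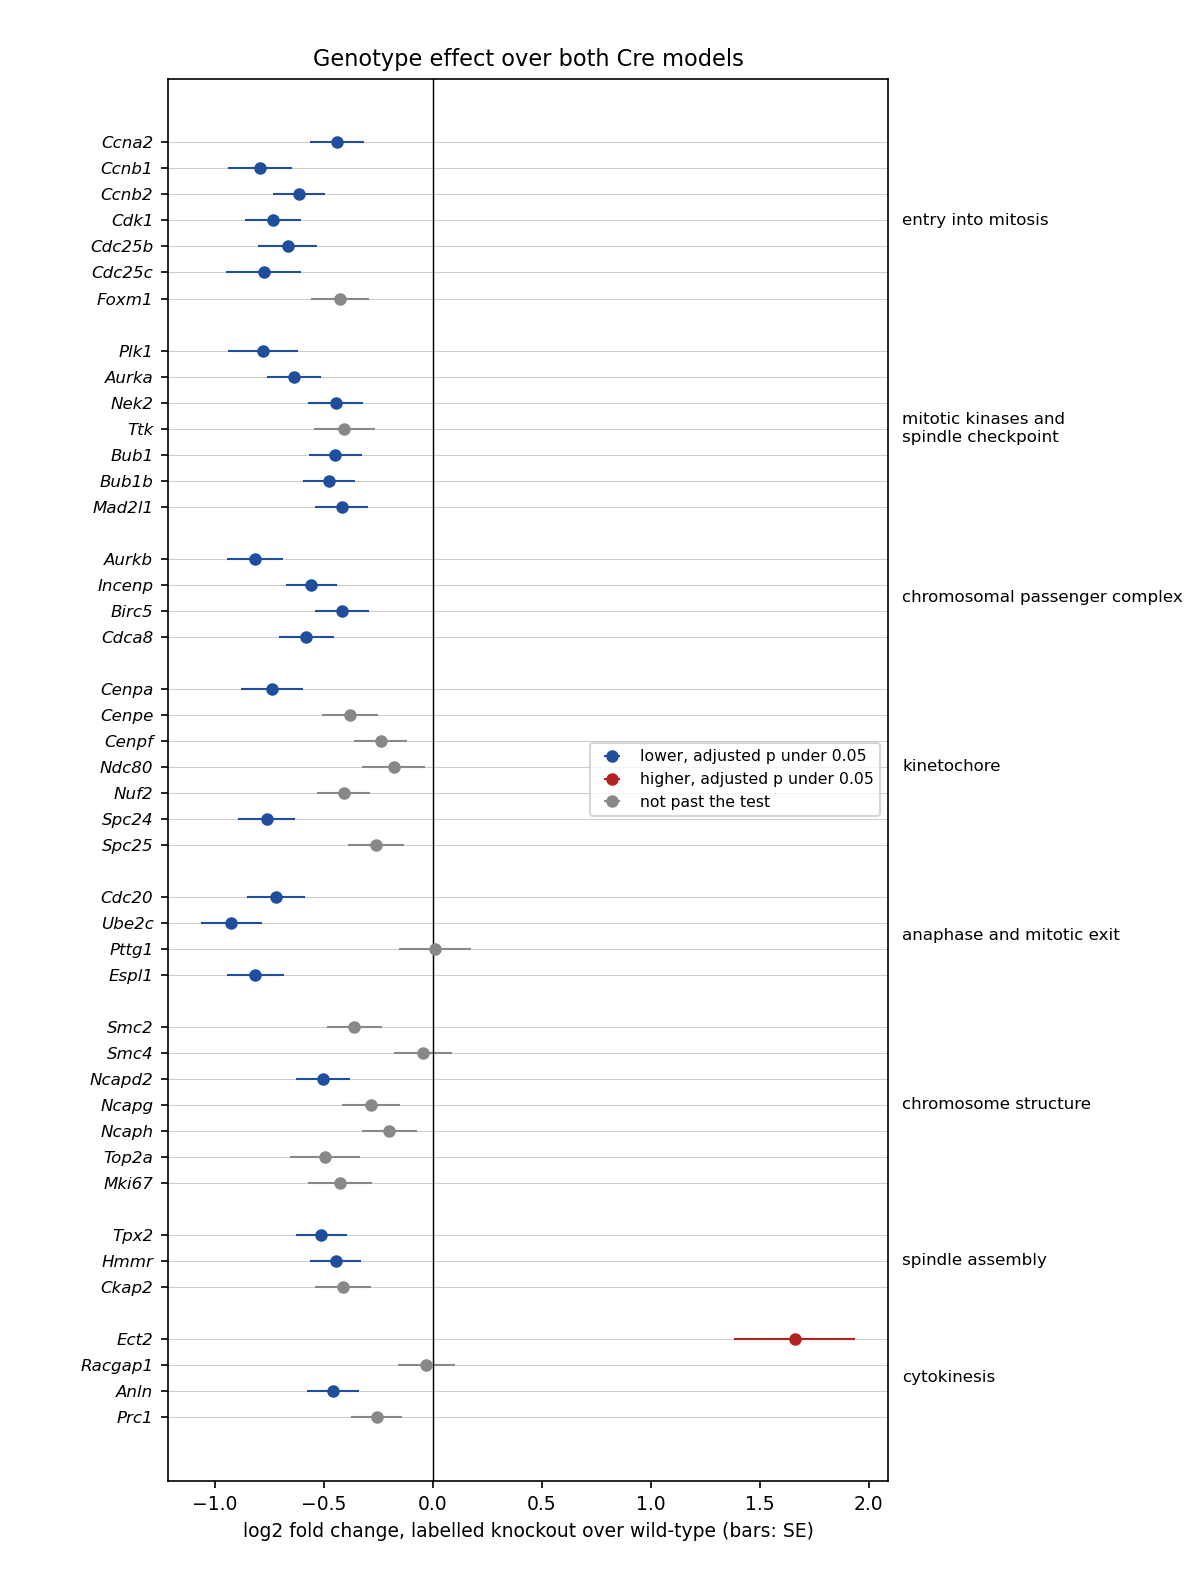
Log2 fold change of each member, labelled knockout over wild-type over both Cre models, with its SE as the bar; blue and red mark genes past the test and grey those not past it. All points but those of Ect2 (1.66) and Pttg1 (0.01) lie below 0, down to -0.92 for Ube2c.

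The 4 cytokinesis members went in different directions: 1 rose, 1 fell and 2 passed no test. Ect2 (ENSMUSG00000027699, minus strand of chromosome 3, 27097222 to 27153878 in GRCm38) is the exchange factor that activates RhoA at the cell equator. It was counted 1162 and 2519 times under PF4-Cre and 261 and 1174 times under ROSA-Cre, or 19.4, 41.6, 10.6 and 52.4 CPM. Both labelled knockout values thus lay above both wild-type values, and the gap was wider in the ROSA-Cre pair. The ratio was 2.14 (95% counting interval 2 to 2.3) under PF4-Cre and 4.94 (4.32 to 5.67) under ROSA-Cre, and the log2 fold change was 1.66 ± 0.28 (edgeR adjusted p = 0.00862). The call was lost without the ROSA-Cre wild-type library (log2 fold change 1.30, edgeR adjusted p = 0.104) and without the ROSA-Cre labelled knockout (1.46, edgeR adjusted p = 0.05005). It was kept without either PF4-Cre library (edgeR adjusted p = 0.00385 and 0.0109).

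Among the 43 members Ect2 had the lowest level per kb of exon in both wild-type libraries, at 3.61 CPM per kb under PF4-Cre and 1.97 under ROSA-Cre. In the labelled knockouts it stood at 7.73 and 9.73 CPM per kb, ranks 39 and 33 of 43 from the top. Its share of the members' summed CPM was 0.192% and 0.551% under PF4-Cre, and 0.133% and 0.899% under ROSA-Cre.

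Racgap1, the centralspindlin subunit to which Ect2 binds, measured 180.3 and 158 CPM under PF4-Cre and 148 and 162 CPM under ROSA-Cre. Its ratios lay on either side of 1, at 0.877 (0.853 to 0.901) and 1.1 (1.05 to 1.15), and it passed no test (log2 fold change -0.03 ± 0.13, edgeR adjusted p = 0.894). Anillin (Anln), a scaffold of the contractile ring, fell: it measured 128, 96.7, 109 and 76.3 CPM (log2 fold change -0.46 ± 0.12, edgeR adjusted p = 0.035). Prc1, which bundles the microtubules of the midzone, measured 311, 260, 241 and 202 CPM (log2 fold change -0.26 ± 0.12, edgeR adjusted p = 0.157). Its exons overlap Rccd1 on the other strand.

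The balance within this role therefore differed between libraries. Per kb of exon, the level of Ect2 was 0.142 times that of Racgap1 in the PF4-Cre wild-type and 0.346 times in its labelled knockout, and 0.0943 and 0.425 times under ROSA-Cre. Against anillin it was 0.255, 0.725, 0.164 and 1.16 times. Per kb of exon, Ect2 thus stood above anillin in the ROSA-Cre labelled knockout, and in the other 3 libraries below it. In CPM, not divided by length, Ect2 stood below anillin in the ROSA-Cre labelled knockout too, at 52.4 against 76.3. The order there thus depends on the exon lengths used, 5386 bases for Ect2 and 9063 for anillin.

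Other genes of cytokinesis and abscission, a list of 40, held 5 that rose and 3 that fell, near the shares of all genes called higher (12.6%) and lower (9.59%), with a median log2 fold change of -0.03. Values of single genes follow for most of those that rose and for all that fell. Rhoc, a close relative of RhoA, was counted 87, 772, 89 and 308 times (1.46, 12.8, 3.62 and 13.8 CPM; log2 fold change 2.56 ± 0.34, edgeR adjusted p = 0.00408). Myh10, the non-muscle myosin IIB heavy chain, whose loss is known to accompany the switch to endomitosis, was counted 241, 847, 131 and 431 times. Its ratios were 3.47 and 3.62, close to each other, and its log2 fold change 1.82 ± 0.22 (edgeR adjusted p = 0.00297). Rhob and the septin Sept9 rose by 0.75 and 0.54.

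Of those that fell, the septin Sept8 measured 174, 98.2, 161 and 64.9 CPM (log2 fold change -1.06 ± 0.15, edgeR adjusted p = 0.00486). Citron kinase (Cit), which acts at the midbody, measured 73.8, 47.7, 145 and 77.0 CPM (log2 fold change -0.77 ± 0.13, edgeR adjusted p = 0.00945). Mrtfa, a coactivator of actin-linked genes, fell by 0.54. A few more were looked up after their values had been seen. Kif23, the other centralspindlin subunit, had ratios of 0.87 and 1.09, much like those of Racgap1, and passed no test (log2 fold change -0.04, edgeR adjusted p = 0.852). Neither Rhoa (log2 fold change -0.35, edgeR adjusted p = 0.0718), nor Arhgef2 (0.23, edgeR adjusted p = 0.223), nor the abscission gene Cep55 (0.48, edgeR adjusted p = 0.0787) passed.

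**Figure D3:**
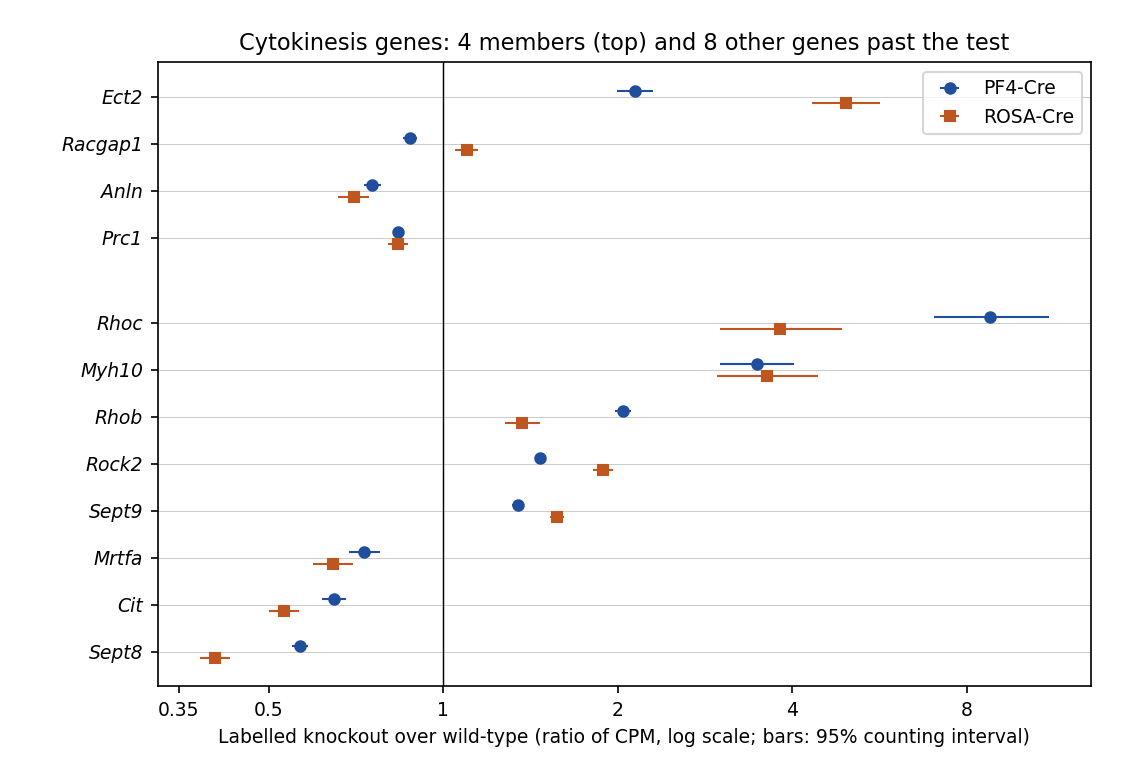
Ratio of CPM, labelled knockout over wild-type, within PF4-Cre (blue circles) and ROSA-Cre (orange squares) on a log scale, with 95% counting intervals, for the 4 cytokinesis members and the 8 other cytokinesis genes past the test. Ect2 lies at 2.14 and 4.94, Racgap1 on either side of 1, and Rhoc (8.77 and 3.8) and Myh10 (3.47 and 3.62) lie on the same side as Ect2.

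Among further genes of mitosis, in 6 lists, none rose, and the share that fell differed from list to list, with 9.59% of all genes called lower. Of 11 mitotic kinesins 7 fell (median -0.42). Kif20a, a midzone motor, measured 162, 107, 140.0 and 93.1 CPM (log2 fold change -0.59), and Kif18b, which acts on microtubule ends, 86.9, 60.8, 112 and 72.2 CPM (-0.58). Of 17 other entry regulators 11 fell (median -0.55). Mybl2 (B-Myb), a subunit of the MMB complex named above, was counted 2967, 1455, 2020 and 557 times, which is 0.485 and 0.303 times the wild-type level (log2 fold change -1.37 ± 0.19, edgeR adjusted p = 0.00446). That is further from 0 than any member that fell. Ccnf (cyclin F) measured 102, 62.1, 114 and 67.4 CPM (-0.74).

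Of 22 other spindle genes 10 fell (median -0.48), among them Cdca3 at 105, 62.1, 107 and 57.5 CPM (-0.83) and Tacc3, a centrosomal spindle protein, at 193, 123, 182 and 105 CPM (-0.72). Of 35 other kinetochore and centromere genes 12 fell (median -0.36). The checkpoint gene Mad1l1 measured 83.1, 59.6, 122 and 63.9 CPM (-0.70) and the kinetochore gene Pmf1 62.3, 44.7, 90.9 and 43.5 CPM (-0.77). By contrast 1 of 14 cohesin and condensin genes fell, Cdca5 (sororin) at 64.5, 42.2, 57.1 and 44.2 CPM (-0.49), with a median of -0.10. Of 17 genes of the anaphase promoting complex 1 fell, Ube2s at 67.6, 52.8, 102 and 67.7 CPM (-0.47), with a median of -0.18. Thus the enzymes Ube2c and Ube2s and the activator Cdc20 fell, while the other 16 genes of that list passed no test.

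The movement was not limited to mitosis. Of 28 S phase genes 26 fell and none rose (median -0.61). The smallest p-values were those of the flap endonuclease Fen1 at 231, 146, 220.3 and 118 CPM (-0.78) and the chromatin assembly subunit Chaf1a at 127, 81.7, 180.5 and 97.7 CPM (-0.76). Whether the lists differ from each other was not tested.

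Markers of other cell types also differed between the libraries, and their part in these results was not tested. The summed level of 11 neutrophil lineage genes was 1806, 1089, 1946 and 510.5 CPM, and 5 of them fell (Mpo, Elane, Prtn3, Ctsg and Ms4a3). The other 6 passed no test: their ratios ran from 0.995 for Ltf to 1.23 for S100a8 under PF4-Cre, and from 0.226 for Ltf to 0.347 for S100a8 under ROSA-Cre. The 12 erythroid genes summed to 656, 735, 485 and 594 CPM, of which 4 rose, all globins, and 4 fell (Klf1, Car1, Rhag and Ermap). The 6 monocyte and macrophage genes summed to 417, 419, 412 and 276 CPM (2 fell), of which Lyz2 alone was 348, 370, 312 and 241 CPM. Under PF4-Cre 5 of these 6 had a ratio below 1 (54.4% of all genes), and under ROSA-Cre all 6 (50.1%). The 5 lymphoid genes summed to 96.1, 57, 94.9 and 51.8 CPM (1 fell, Ighm), of which Ighm alone was 92.8, 55.3, 94.5 and 51.4 CPM. Of the lymphoid genes Cd3e was at 0 in the ROSA-Cre wild-type, and Cd3e, Cd79a and Ms4a1 were at 0 in the ROSA-Cre labelled knockout, whereas no gene of the other marker lists was at 0 in any library. The 8 stem and progenitor genes summed to 989, 1107, 821 and 1252 CPM, and Procr and Mecom rose. The 7 mast cell, basophil and eosinophil genes summed to 85.6, 92, 362 and 305 CPM, and of these Fcer1a rose and Prg2 fell. Between the models they differed in direction. Prg2 was higher under ROSA-Cre, at 17.9, 4.68, 228 and 157 CPM, and Cpa3 lower, at 29.2, 39.5, 4.92 and 7.06 CPM. Of the 15 megakaryocyte markers 5 rose and 3 fell.

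The 2 Cre models were next set side by side, each with 1 library a group, so that the intervals cover counting error only and no test applies. Under PF4-Cre 42 of 43 ratios were below 1 (54.4% of all genes tested), with a median of 0.725. Under ROSA-Cre 38 were below 1 (50.1% of all genes), with a median of 0.714. Past a 1.5-fold size, 7 members were lower and 1 higher under PF4-Cre, where 8.5% and 17% of all genes were. Under ROSA-Cre 15 were lower and 1 higher, where 18.5% and 22.6% of all genes were. The higher member was Ect2 in each. The ROSA-Cre ratio was the lower one in 23 members (46.7% of all genes), and its interval lay wholly under that of PF4-Cre in 18 (18.8% of all genes) and wholly above in 10 (22.7% of all genes). A gene with few counts has a wide interval, so these interval shares, here and below, depend on counts as well as on ratios. They do not compare members and all genes at like counts.

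By role, this varied. In anaphase and mitotic exit 3 of 4 members had the whole ROSA-Cre interval under that of PF4-Cre (18.8% of all genes). So had 5 of 7 in entry into mitosis, 5 of 7 at the kinetochore and 2 of 4 in the chromosomal passenger complex. At the kinetochore 1 member had it above. In chromosome structure 6 of 7 had it above (22.7% of all genes), with median ratios of 0.731 under PF4-Cre and 0.835 under ROSA-Cre. Without Ect2, the log2 ratios of the other 42 members had a Pearson correlation of 0.75 and a Spearman correlation of 0.72 between the models, across genes, which are not independent replicates.

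**Figure D4:**
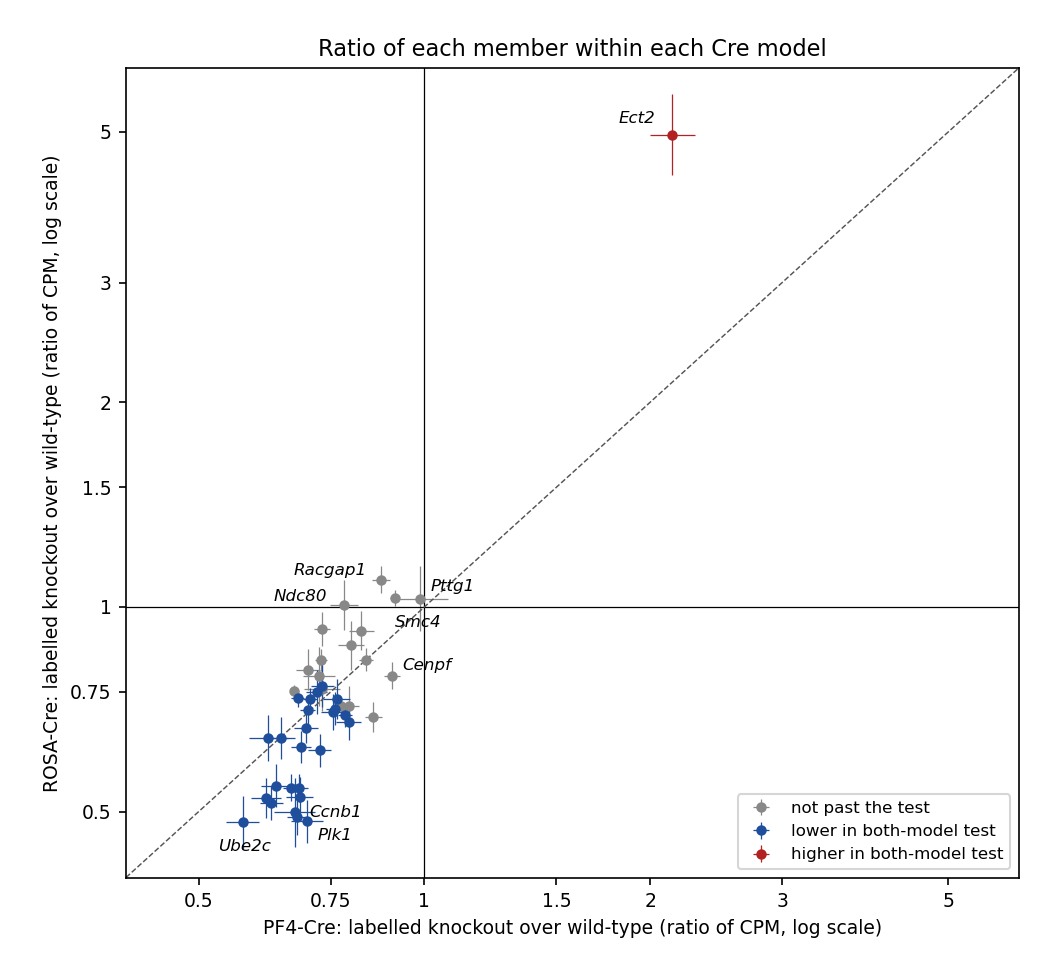
Ratio of CPM, labelled knockout over wild-type, of each member under PF4-Cre (horizontal) and ROSA-Cre (vertical), both on log scales, with 95% counting intervals and the line of equal ratios. Most points lie in the lower left, Ect2 alone lies far in the upper right, and Racgap1, Ndc80, Smc4 and Pttg1 lie just above 1 under ROSA-Cre only.

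Between the models themselves, 15 members were lower and 4 higher in the ROSA-Cre libraries (edgeR with genotype as a term), against 10.4% and 8.33% of all genes. Higher were Cdc25b, Foxm1, Incenp and Pttg1. Ncapg had the largest difference downward, at 253, 185, 106 and 98.5 CPM (log2 difference -1.08 ± 0.13, edgeR adjusted p = 0.00526), and Cdc25b upward (0.63 ± 0.13, edgeR adjusted p = 0.0223). The exons of Ncapg overlap Lcorl on the other strand, which had a log2 difference of -1.15 ± 0.15 (edgeR adjusted p = 0.00593). In the wild-type libraries alone, the ratio of ROSA-Cre to PF4-Cre ran from 0.419 for Ncapg to 1.52 for Cdc25b with a median of 0.849, and 14 of 43 members were above 1, as were 50.1% of all genes. At or over a ratio of 1.5 were 2 members, against 15.6% of all genes. In the labelled knockouts 10 members were above 1 (50.4% of all genes), with a median of 0.789. With a correction for the GC content and length of genes, 1 member was higher and 0 lower, against 2.07% and 1.14% of all genes. By edgeR in that setting 9 members had an unadjusted p under 0.05. The model, the depth and base composition thus cannot be told apart here.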

How the data were processed

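RNA was sequenced from 4 sorted libraries after preparation with a stranded mRNA kit, per the labels' protocols. Per the submitters' processing notes, the build was GRCm38 (mm10) and the tools were TopHat2 2.0.10, HTSeq, SAMtools and DESeq. Raw counts per gene were deposited by the authors, with the strand setting not given in the sources used here. Counts outside genes (32.1% to 36.2% of counted reads) and ambiguous ones (0.448% to 0.532%) stayed out of library sizes. GENCODE M21 gave names, exon lengths and positions to 40340 of 41214 identifiers.

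Counts were fitted with edgeR 4.0.16 (R 4.3.3): TMM scaling, the filterByExpr filter, a quasi-likelihood test with Cre model and genotype as terms, and Benjamini-Hochberg adjustment over 15063 genes at 0.05. The SE is the log2 fold change divided by the square root of F. Ratios within a model are of scaled counts, with 95% Clopper-Pearson intervals that cover counting error only. The fit was tested on simulated data.

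The members and gene lists were chosen with earlier results of these data known. Per-library values are given for the 2 members of each role with the smallest p-values, each that rose, each with ratios on either side of 1, the largest Cre model difference each way, and up to 2 genes a direction of each other list. Alternatives were other scalings, filters, tests (DESeq2 1.42.0), gene sets, model terms and leaving out each library.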

Additional observations from a re-analysis of the deposited data

Results flagged for a closer look

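In 4 members the labelled knockout stood under the wild-type in the PF4-Cre pair and above it in the ROSA-Cre pair. Of all genes tested, 22.9% had ratios on opposite sides of 1 in the models. With 1 library in each group the difference was not tested. Racgap1 had a ratio of 0.877 under PF4-Cre and 1.1 under ROSA-Cre, and both counting intervals excluded 1. Smc4 had 0.913 and 1.03, and here too both intervals excluded 1, the second by little (lower bound 1.002). Ndc80 had 0.782 and 1.01, and the ROSA-Cre interval held 1. Pttg1 had 0.988 and 1.03, and both intervals held 1.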

How the results depend on the processing

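The count of members that fell (25 as reported) stayed within 18 and 36 under other scalings, gene sets, quasi-likelihood settings and a filter at 5 CPM, with 24 by the DESeq2 Wald test and 36 with GC and length correction. The share of all genes called lower ran from 8.72% to 11.5% in these settings. Without the filter on low counts 14 members fell, where 2.43% of all genes were called lower. Counts of members with an unadjusted p under 0.05 in this section include both directions. Without the Cre model term 0 members fell by edgeR, where 0.0266% of all genes were called lower (13 members had an unadjusted p under 0.05). With each library left out in turn, the members' median log2 fold change ran from -0.66 to -0.31. Calls as lower were then lost for the members, as were most over all genes. The count that rose was 0 without the Cre model term, where 1.05% of all genes were called higher. Ect2 had 1.64 in that setting (edgeR adjusted p = 0.105). Its call was also lost without either ROSA-Cre library. Over all settings the log2 fold change of Ect2 ran from 1.30 to 2.15, and the DESeq2 Wald test gave 1.69 (adjusted p = 6.19e-08).

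Members higher under ROSA-Cre (4 as reported) were 1 without the filter, 1 with GC and length correction and 0 without the genotype term. Of all genes 3.41%, 2.07% and 0% were called higher in these settings. Members lower under ROSA-Cre (15) were 0 with that correction and 0 without the genotype term (edgeR; 9 and 11 with an unadjusted p under 0.05). Of all genes 1.14% and 0.00664% were called lower there. A filter at 5 CPM moved Smc4 to 0.0097 and Racgap1 to 0.025, and leaving out repeat-like and small RNA genes moved Racgap1 to 0.0028. With a library left out, log2 fold changes ran from -0.93 to 0.0076 for Hmmr, from -0.87 to 0.43 for Ncapg, from -0.55 to 0.28 for Ndc80, from -0.34 to 0.36 for Pttg1, from -0.14 to 0.12 for Racgap1 and from -0.53 to 0.51 for Smc4. Such fits mix the Cre model into the genotype effect. The Cre model term sets each labelled knockout against the wild-type of its own model, and the labels number no replicates that could form another block. The cause was not tested for any of these changes.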

Other observations

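Chromosome 3 around Ect2 was examined after the values of Ect2 had been seen. Of the 4 protein-coding genes within 1 Mb that were tested, 3 rose as well, where 12.6% of all genes were called higher. The region was chosen because Ect2 rose, so this count is a description. Nceh1, a cholesteryl ester hydrolase the neighbour upstream of Ect2 on the other strand, was counted 1401, 2123, 307 and 753 times (log2 fold change 0.98 ± 0.23 SE, edgeR adjusted p = 0.0249). Like Ect2, it had the larger ratio under ROSA-Cre, 2.7 against 1.5. Pld1, a phospholipase, was counted 495, 1255, 170 and 431 times (1.39 ± 0.20, edgeR adjusted p = 0.00558), and Fndc3b had 0.93 ± 0.26 (edgeR adjusted p = 0.0395). The ratios of Pld1 were nearer each other, 2.79 under ROSA-Cre against 2.5 under PF4-Cre. Fndc3b had the smaller ratio under ROSA-Cre, 1.58 against 2.19. The cytokine gene Tnfsf10, which lies between Nceh1 and Fndc3b, passed no test (-0.12).

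The spindle gene Ckap2l, chosen after its values had been seen, was counted 20746, 12373, 6753 and 1540 times. Its ratio was 0.589 under PF4-Cre and 0.251 under ROSA-Cre (log2 fold change -1.37 ± 0.27, edgeR adjusted p = 0.0141), while its relative Ckap2 passed no test.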
